A study of Mus musculus with 16 samples.

Results

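Mouse jejunal enteroids that had lost the motor protein MYO5B were compared after treatment with Compound-1 and after treatment with its vehicle. The comparison took the 4 Compound-1 libraries and the 4 vehicle libraries of the knockout, which are 8 of the 16 bulk RNA-seq samples of the series, chosen by their labels alone. All 8 cultures carried the same genotype, Vil-CreERT2;Myo5b-flox/flox, in which the villin promoter drives a tamoxifen-inducible Cre recombinase in intestinal epithelial cells. Crypts came from adult mice, were grown as organoids, were passaged before induction, and received 1 µM 4-OH-tamoxifen in the dish for 24 h, so that the deletion was made in vitro in both groups. Differentiation medium with Noggin and R-spondin but without added Wnt ligands or EGF followed, and it contained either 100 nM Compound-1 or PBS for 2 days. The study counts 4 mice in each group. The control enteroids quoted for orientation (4 libraries) had the genotype label Control; the design text derives them from Vil1-CreERT2; Myo5b flox/flox mice with ethanol in place of 4-OH-tamoxifen, whereas the study elsewhere calls them healthy littermates. The fourth group of the series, Vil-CreERT2;Myo5b-flox/G519R enteroids, is quoted for a few genes only. It received the same 1 µM 4-OH-tamoxifen for 24 h and no Compound-1.

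MYO5B carries recycling endosomes along actin toward the apical membrane, and its loss in humans causes microvillus inclusion disease, a congenital diarrhea in which brush border transporters are held inside enterocytes. Lysophosphatidic acid (LPA) is a lipid ligand of a family of G protein-coupled receptors, and LPAR5 is a member that the intestinal epithelium expresses. Compound-1 is a synthetic agonist that the study describes as preferring LPAR5 and as also acting on human LPAR3. The comparison asks which transcripts of knockout enteroids differed when Compound-1 was present during differentiation. Activation of either receptor was not measured in these libraries.

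Each library held 27804968 to 40101729 counts assigned to genes. A count of 0 allowed up to 0.0737 to 0.106 CPM (counts scaled for library size) in these 8 libraries, taking 3 counts as its limit, and such limits cover counting error only. Transcripts of the mitochondrial chromosome took 4.16% to 6.63% of counts with vehicle and 3.79% to 6.11% with Compound-1 (p = 0.629, exact two-sided permutation test, where 4 against 4 cannot go below 0.0286). Epithelial genes were abundant in all 8, with Epcam, an adhesion protein of epithelia, at 996 to 1264 CPM. The leukocyte genes Cd3e and Adgre1 and the fibroblast genes Dcn and Lum were at 0 in all 8. Xist and Y-linked genes marked 2 vehicle cultures (2 and 3) and 1 Compound-1 culture (4) as female. Same-numbered cultures therefore came from mice of different sex for 3 of the 4 numbers. The whole-gene counts of Myo5b check the deletion only in part, because an excised stretch leaves the rest of the transcript countable. Myo5b stood at 135, 109, 170 and 101 CPM in the vehicle cultures and at 149, 106, 87.2 and 101 CPM in the Compound-1 cultures, beside a control mean of 189 CPM ± 29.9 (SD, n = 4).

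The cultures did not divide cleanly by treatment. In a principal component analysis of log2 CPM over 18037 genes, the first component held 28% of the variance and ran from vehicle cultures 3 and 2 at one end to Compound-1 cultures 4 and 3 at the other. Compound-1 culture 1 lay beside vehicle culture 1 (Pearson r across genes 0.980), and Compound-1 culture 2 lay beside vehicle culture 4 (0.986, the highest of all 28 pairs). Genes are not independent replicates, so these correlations describe the libraries only. The values of single cultures are therefore given with the results.

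**Figure D1:**
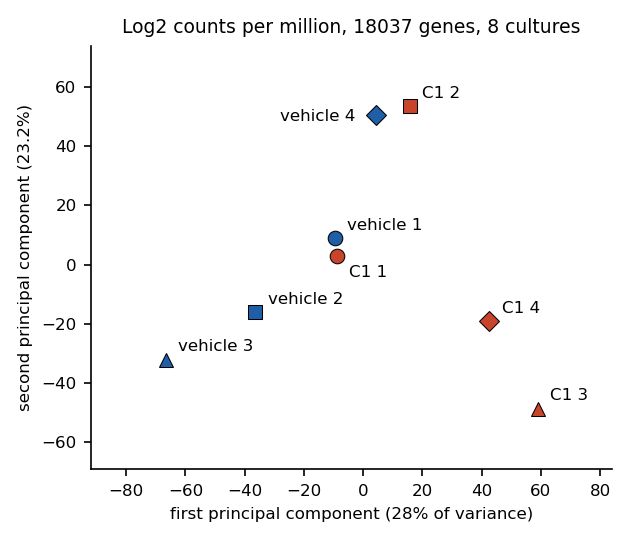
First and second principal components of log2 CPM in the 8 knockout cultures; blue marks vehicle, red marks Compound-1, and the symbol marks the culture number. Compound-1 cultures 3 and 4 lie apart at the right, while Compound-1 cultures 1 and 2 lie beside vehicle cultures 1 and 4.

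With edgeR's quasi-likelihood test on these 2 groups, no gene passed an adjusted p of 0.05 (0 of 18037 tested, 0%), and the smallest adjusted p was 0.532. At an unadjusted p under 0.05 there were 1355 genes, of which 616 (3.42%) were higher and 739 (4.1%) lower with Compound-1. DESeq2's Wald test, which the study's methods name, called 91 genes on the same counts. Of the 16972 genes it gave an adjusted p, 48 (0.283%) were higher and 43 (0.253%) lower with Compound-1, and 84 of the 91 differed by more than 1 on the log2 scale. All 4 Compound-1 cultures lay above all 4 vehicle cultures for 286 genes (1.59%) and below them for 229 genes (1.27%). For the 91 genes called by DESeq2, the groups did not overlap for 60. Throughout, fold changes and standard errors come from edgeR and are Compound-1 minus vehicle on the log2 scale. Calls are those of DESeq2 at an adjusted p under 0.05. All gene lists below were chosen with earlier results of these data known, so their counts are descriptive and not independent evidence.

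The DESeq2 calls rested on particular cultures. Without Compound-1 culture 3 or without culture 4, 7 genes were called, and without both 0 were (521 at an unadjusted p under 0.05; edgeR also called 0, with 400). Without vehicle culture 3, 5 genes were called, and without vehicle culture 2, 18 were. Without Compound-1 culture 1 the count was 405, without culture 2 it was 383, and without vehicle culture 4 it was 245; without vehicle culture 1 it was 63. Compound-1 culture 3 had the highest value of its group for 46 of the 48 genes called higher. Among the 43 genes called lower, Compound-1 culture 3 was the lowest for 22 and culture 4 for 18, and vehicle culture 3 was the highest for 29. Only 5 genes were called in all 8 fits that left out 1 culture: Nox1 and Dpysl3, which were higher, and Ciita, Dbp and Slc5a11, which were lower. G519R culture 4, which had no Compound-1, was at 8.12 CPM for Nox1, 3.5 for Dbp and 0.453 for Ciita. The other G519R cultures were at 0.977 to 1.8, 17 to 27.1 and 1.18 to 3.05 CPM. For Dpysl3 and Slc5a11 culture 4 was at 13.5 and 7.39 CPM, against 4.66 to 11.5 and 9.02 to 14.2 CPM. The cause was not tested.

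**Figure D2:**
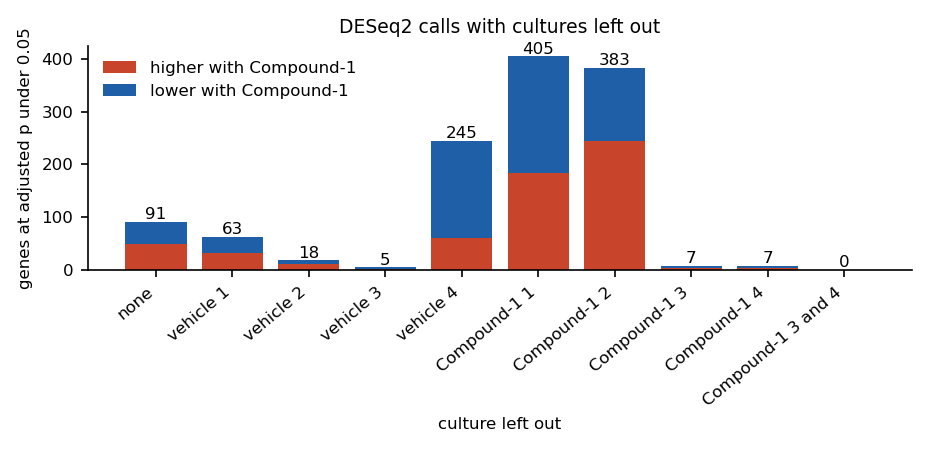
Number of genes called by DESeq2 at an adjusted p under 0.05 (vertical axis) with all 8 cultures (none) and after leaving out the culture named on the horizontal axis; red is higher and blue lower with Compound-1. The count was 91 with all cultures, 405 without Compound-1 culture 1 and 0 without Compound-1 cultures 3 and 4.

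The gene of the preferred receptor, Lpar5, was expressed in both groups at similar levels. Lpar5 was at 31, 20.1, 25.9 and 23.4 CPM with vehicle and at 30.2, 20.2, 30 and 28.5 CPM with Compound-1. Its log2 fold change was 0.09 ± 0.18 (SE) with a 95% interval of -0.31 to 0.48 (DESeq2 adjusted p = 0.992), so that the data do not show whether a shift within that interval occurred. Per transcript length, Lpar5 was the most abundant LPA receptor, at a mean of 16.5 FPKM with vehicle and 17.7 FPKM with Compound-1. Lpar1 followed at 5.66 and 5.69 FPKM, Lpar2 at 3.11 and 3.02 FPKM and Lpar6 at 2.81 and 2.37 FPKM. Lpar1, Lpar2 and Lpar6 had log2 fold changes of -0.01 ± 0.17, -0.06 ± 0.21 and -0.26 ± 0.18, and the groups overlapped for each. Lpar3 was near the detection limit in several cultures (0.0901 to 1.24 CPM with vehicle, 0.0571 to 1.14 CPM with Compound-1). Enpp2, which encodes autotaxin, the secreted enzyme that makes LPA, was at 0 in all vehicle cultures. Of 12 listed receptors and enzymes of LPA turnover 10 were tested, 5 above 0 and 5 below, and none was at an unadjusted p under 0.05.

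Genes that make reactive oxygen, nitric oxide and prostaglandins were higher. Of 8 such genes, a list drawn up after these values had been seen, 7 had a positive log2 fold change, 6 were at an unadjusted p under 0.05 in the higher direction and DESeq2 called 4: Nox1, Nos2, Duoxa2 and Ptgs2. Nox1, the catalytic subunit of the epithelial superoxide-producing NADPH oxidase, had the smallest p of all genes by either test. It lies on chromosome X (134086421 to 134221956, minus strand, GRCm38). Its levels were 1.77, 0.51, 0.708 and 1.92 CPM with vehicle and 5.6, 6.42, 13.8 and 20.5 CPM with Compound-1. Every treated culture stood above every vehicle culture, with a log2 fold change of 3.2 ± 0.52 (9.20-fold; DESeq2 adjusted p = 1.64e-07). Control enteroids ranged from 0.470 to 9.04 CPM, which overlaps both groups. Reads that fall where Nox1 overlaps Cstf2 on the opposite strand cannot be assigned without strand, and Cstf2 had a log2 fold change of 0.15 ± 0.16.

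The inducible nitric oxide synthase Nos2 was at 12.4, 9.41, 9.88 and 12 CPM with vehicle and at 40.5, 18.9, 138 and 107 CPM with Compound-1. The groups did not overlap, but cultures 3 and 4 were far above cultures 1 and 2, with a log2 fold change of 2.77 ± 0.50 (DESeq2 adjusted p = 0.00911, called in 4 of the 8 fits with 1 culture left out). Duoxa2, the maturation factor of the hydrogen peroxide-producing oxidase DUOX2, was at 9.02, 10.4, 9.56 and 5.26 CPM with vehicle and at 22.7, 9.71, 39.3 and 31.8 CPM with Compound-1. Culture 2 stayed within the vehicle range for Duoxa2 (1.56 ± 0.37, adjusted p = 0.0175, 5 of 8 fits). Duox2 itself showed the same order of cultures, with 111, 29.1, 242 and 188 CPM after Compound-1 against 19.1 to 52.5 CPM with vehicle, and DESeq2 did not call it (1.71 ± 0.52, DESeq2 adjusted p = 0.270). Ptgs2, the inducible cyclooxygenase, was at 0.673 to 1.59 CPM with vehicle and at 2.68, 1.57, 23.4 and 8.11 CPM with Compound-1 (3.12 ± 0.74, adjusted p = 0.0470, 3 of 8 fits). The other parts of the NOX1 complex differed less. Noxa1, its activator, was higher in every treated culture by a small margin (31.3 to 42.6 against 19 to 31.2 CPM; 0.41 ± 0.18), Cyba, its membrane partner, had 0.62 ± 0.23, and Noxo1, its organizer, had 0.27 ± 0.27. Over the 24 listed genes of NADPH oxidases and oxidant defense, 19 were tested. Of these 6 were at an unadjusted p under 0.05 in the higher direction, against 3.42% of all genes, and 1 in the lower. The median log2 fold change was 0.26 beside 0.00 over all genes tested. The 6 became 3 without vehicle culture 3, 3 without Compound-1 culture 3 and 2 without both Compound-1 cultures 3 and 4.

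**Figure D3:**
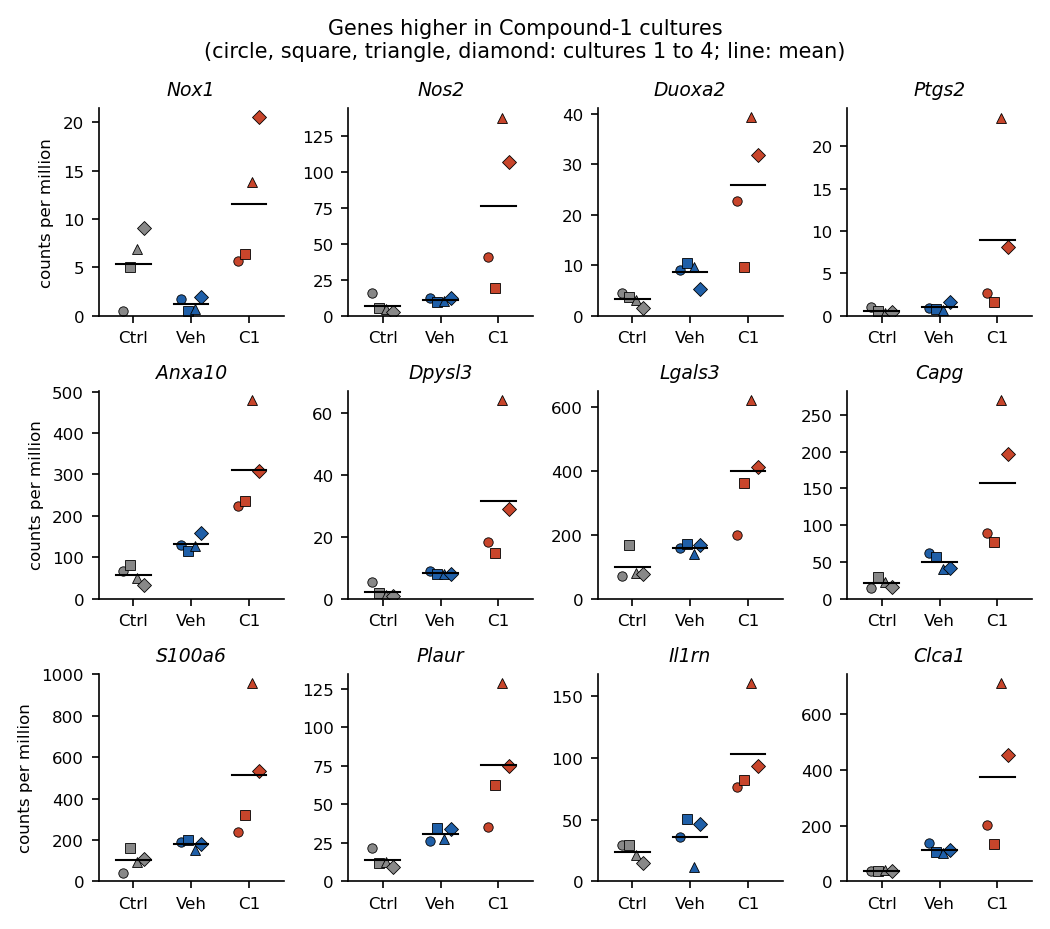
CPM (vertical axes, starting at 0) of 12 genes that were higher with Compound-1, in control enteroids (Ctrl), vehicle-treated knockout (Veh) and Compound-1-treated knockout (C1); each symbol is 1 culture and each line the mean of 4. Nox1 is at most 1.92 CPM with vehicle and at least 5.6 CPM with Compound-1, and Compound-1 cultures 3 and 4 are above cultures 1 and 2 in the panels of Nos2, Capg and Clca1.

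Promoters of several of these genes are shown because several promoters of the higher genes held the same short motif. RefSeq promoters (GRCm38.p6, from 250 bases before to 50 after the annotated start) were found for 34 of the 48 genes called higher and for 31 of the 43 called lower. The AP-1 motif was searched on both strands as the loose pattern TGANTCA, where N is any base. It occurred in 12 of 46 promoters of the higher genes (26.1%), in 3 of 36 of the lower genes (8.33%) and in 7.81% of all 32851 promoters. The 12 genes were Anxa10, Arhgap40, Bdnf, Duoxa2, Efemp1, Gm13415, Il1rn, Plaur, Procr, Rgs17, Syt8 and Tmem40. The E-box CACGTG, which the clock factors CLOCK and BMAL1 bind, was in 4.35% of promoters of higher genes, 5.56% of lower genes and 7.15% of all. The D-box TTATGNAA, bound by DBP, HLF and TEF, was in 4.35%, 8.33% and 3.38%. A match is a string in this window and not a measured binding site. Capitals below mark every match of these 3 motifs. Anxa10 holds 2 AP-1 matches, 180 and 16 bases before the start, and Il1rn has one at 141 bases, all TGAGTCA. Duoxa2 has one at 168 bases, which reads TGAATCA and matches only because N is any base. Nox1 holds no AP-1 match. Its D-box match reads TTATGGAA, with another base at N than the TTATGTAA of Per3 printed below.
Anxa10 (chr8:62123144-62123443, minus strand): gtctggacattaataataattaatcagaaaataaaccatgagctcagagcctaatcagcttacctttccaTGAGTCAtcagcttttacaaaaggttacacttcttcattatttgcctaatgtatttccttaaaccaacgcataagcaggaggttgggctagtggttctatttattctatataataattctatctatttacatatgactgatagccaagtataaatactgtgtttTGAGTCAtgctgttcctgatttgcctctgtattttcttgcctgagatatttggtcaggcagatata
Duoxa2 (chr2:122298650-122298949, plus strand): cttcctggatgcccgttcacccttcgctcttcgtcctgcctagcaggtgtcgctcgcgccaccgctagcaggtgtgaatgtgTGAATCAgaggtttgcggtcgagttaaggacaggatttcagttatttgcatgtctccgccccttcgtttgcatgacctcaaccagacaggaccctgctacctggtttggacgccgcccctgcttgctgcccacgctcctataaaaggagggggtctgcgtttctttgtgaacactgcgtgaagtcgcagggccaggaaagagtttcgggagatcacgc
Il1rn (chr2:24336610-24336909, plus strand): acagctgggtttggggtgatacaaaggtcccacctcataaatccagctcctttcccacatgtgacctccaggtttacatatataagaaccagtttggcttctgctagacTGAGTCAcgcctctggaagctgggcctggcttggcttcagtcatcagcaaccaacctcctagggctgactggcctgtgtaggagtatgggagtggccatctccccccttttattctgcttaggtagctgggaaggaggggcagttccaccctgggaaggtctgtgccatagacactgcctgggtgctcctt
Nox1 (chrX:134111805-134112104, minus strand): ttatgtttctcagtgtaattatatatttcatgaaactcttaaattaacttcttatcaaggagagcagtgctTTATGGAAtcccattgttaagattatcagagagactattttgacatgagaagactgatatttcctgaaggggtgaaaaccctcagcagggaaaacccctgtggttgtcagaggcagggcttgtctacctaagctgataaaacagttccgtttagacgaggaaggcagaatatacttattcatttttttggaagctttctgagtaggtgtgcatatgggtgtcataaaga

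Further genes called higher by DESeq2 belonged to no single list. Dpysl3, a cytoskeletal phosphoprotein also known as CRMP4, was nearly constant with vehicle (8.93, 7.97, 8.07 and 7.81 CPM) and at 18.4, 14.8, 64.1 and 28.9 CPM with Compound-1. The log2 fold change was 1.91 ± 0.39 (DESeq2 adjusted p = 0.00178), and the call was made in all 8 fits with 1 culture left out. Anxa10, an annexin typical of gastric epithelium, was at 129, 114, 127 and 159 CPM with vehicle and at 223, 236, 480 and 308 CPM with Compound-1 (1.21 ± 0.23, adjusted p = 0.00323, 7 of 8 fits). These genes were higher in each of the 4 treated cultures.

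Lgals3, which encodes galectin-3, was at 141 to 170 CPM with vehicle and at 199, 362, 625 and 412 CPM with Compound-1 (1.29 ± 0.27). Capg, an actin-capping protein, was at 40.6 to 62.2 CPM with vehicle and at 88.8, 76.3, 270 and 196 CPM with Compound-1 (1.62 ± 0.36). S100a6, a calcium-binding S100 protein, was at 150 to 201 CPM with vehicle and at 237, 322, 957 and 531 CPM with Compound-1 (1.47 ± 0.35). None of the 3 overlapped between groups, and DESeq2 called each with an adjusted p of 0.0108, 0.0108 and 0.0180. Syt8, a synaptotagmin, Fer1l6, a ferlin, Timp2, an inhibitor of metalloproteinases, and Tnni2, a troponin subunit, also did not overlap. Their log2 fold changes were 1.65 ± 0.37, 1.94 ± 0.46, 2.21 ± 0.54 and 1.73 ± 0.42, and the calls were made in 5, 3, 5 and 4 of the 8 fits. The groups did not overlap for 3 further genes with smaller differences: Id3, an inhibitor of basic helix-loop-helix factors induced by BMP signals (1.14 ± 0.27), Fut2, a fucosyltransferase of mucosal glycans (1.02 ± 0.23), and Tspan1, a tetraspanin (1.03 ± 0.24).

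Genes of the fetal and regenerative epithelium, which adult intestinal epithelium turns on after injury, were higher as a group. Of 18 listed genes 17 were tested, and all 17 had a positive log2 fold change, with a median of 0.79. Of these 13 were at an unadjusted p under 0.05 in the higher direction, against 3.42% of all genes, and 6 did not overlap between groups, against 1.59%. DESeq2 called 2, Plaur and Il1rn. Plaur, the urokinase receptor, was at 26.1 to 34.6 CPM with vehicle and at 35.4, 62.9, 129 and 74.9 CPM with Compound-1 (1.27 ± 0.31, adjusted p = 0.0270). Il1rn, the secreted antagonist of the interleukin-1 receptor, was at 11.8 to 51 CPM with vehicle and at 76.5, 82.4, 161 and 93.4 CPM with Compound-1 (1.47 ± 0.39, adjusted p = 0.0313). Clu, the marker of revival stem cells, reached 1510 CPM in Compound-1 culture 3 and was at 298, 105 and 449 CPM in cultures 1, 2 and 4, against 101 to 172 CPM with vehicle (2.17 ± 0.61, not called). Msln and Anxa1 had 1.66 ± 0.44 and 1.45 ± 0.42, and neither was called. The keratin gene Krt7 and the EGF receptor ligand gene Ereg did not overlap between groups (0.79 ± 0.22 and 0.79 ± 0.24). Compound-1 culture 3 exceeded all 4 vehicle cultures for 17 of the 17 genes, and cultures 1, 2 and 4 did so for 11, 10 and 11, against 19.3% to 28% of all genes in single treated cultures. Without cultures 3 and 4 all 17 remained above 0 with a median of 0.44, and 6 were at an unadjusted p under 0.05. In control enteroids the summed level of the list was 1121 to 1622 CPM, below both the vehicle range of 1862 to 2664 CPM and the Compound-1 range of 3173 to 7718 CPM.

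Immediate early genes and the targets of SRF and of YAP are transcribed downstream of G protein-coupled receptors. Of 24 immediate early genes, 20 had a positive log2 fold change (median 0.27), and DESeq2 called none. At an unadjusted p under 0.05 were 4 in the higher direction and 2 in the lower. Over all genes tested, 3.42% were at such a p in the higher direction and 4.1% in the lower. Dusp5, a phosphatase induced by ERK signaling, was at 47.1 to 62.4 CPM with vehicle and at 65.3, 75.1, 106 and 81.9 CPM with Compound-1 (0.54 ± 0.16). Klf6 also did not overlap (0.56 ± 0.19), while Klf2 lay lower in every treated culture, at 0.235 to 0.540 against 0.691 to 1.24 CPM (-1.24 ± 0.40). Of 15 tested targets of SRF and its cofactor MRTF, 5 were at an unadjusted p under 0.05 in the higher direction and 1 in the lower, among them the actin-binding Cnn2 (0.93 ± 0.28). Of 12 tested targets of YAP and TEAD, 3 were at an unadjusted p under 0.05 in the higher direction and 1, Axl, in the lower. Ankrd1, a much used YAP reporter gene, was called by DESeq2 (2.92 ± 0.75, adjusted p = 0.0164), but culture 2 was within the vehicle range, with 1.91, 0.376, 8.76 and 3.65 CPM after Compound-1 and 0.270 to 0.719 CPM with vehicle. F3, which encodes tissue factor, did not overlap (145 to 299 against 62 to 141 CPM). Without cultures 3 and 4 the YAP and TEAD median was -0.02, in place of 0.21, and 0 genes of each of the immediate early, SRF and YAP lists were at an unadjusted p under 0.05 in the higher direction. When 1 culture was left out these counts ranged from 2 to 7, from 1 to 6 and from 2 to 3, with 2, 1 and 2 without Compound-1 culture 3.

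**Figure D4:**
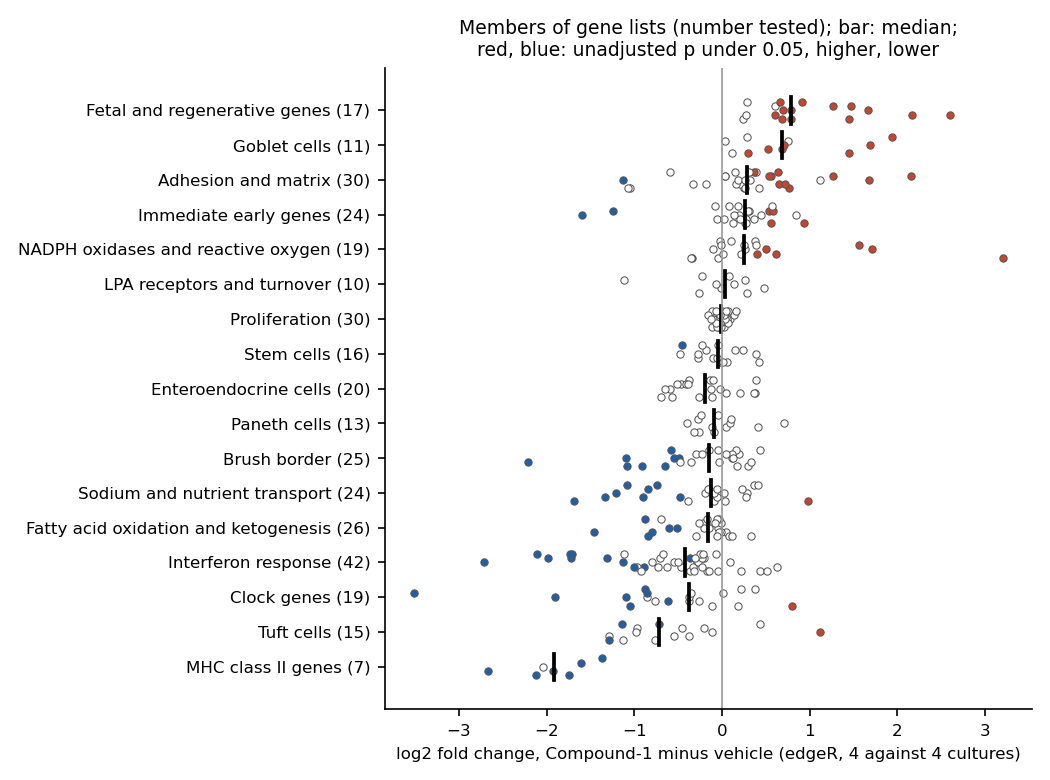
Log2 fold change of each tested member of 17 gene lists (horizontal axis; 1 point per gene, number tested in parentheses); black bars are medians, and red and blue points are at an unadjusted edgeR an unadjusted p under 0.05, higher and lower. Members of the fetal and regenerative list lie to the right with a median of 0.79, members of the MHC class II list lie to the left with a median of -1.92, and proliferation genes lie around 0.

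Goblet cell genes, which mark mucus-secreting cells, were highest in Compound-1 cultures 3 and 4. All 11 tested genes of the list had positive log2 fold changes (median 0.69), 7 were at an unadjusted p under 0.05 in the higher direction, against 3.42% of all genes, and DESeq2 called Clca1 and Fer1l6. Clca1, a protease secreted with mucus, was at 101 to 138 CPM with vehicle and at 201, 133, 712 and 455 CPM with Compound-1 (1.69 ± 0.42, adjusted p = 0.0180). Muc2, the gel-forming mucin, was at 104 to 147 CPM with vehicle and at 120, 133, 338 and 218 CPM with Compound-1 (0.69 ± 0.29), and Zg16, a lectin of goblet granules, was at 56.7, 51.5, 313 and 230 CPM against 38 to 103 CPM (1.45 ± 0.55). Compound-1 culture 2 was within the vehicle range for these 3 genes, and culture 1 was so for Muc2 and Zg16. The 7 became 3, 3 and 4 without vehicle cultures 2, 3 and 4, 2 and 3 without Compound-1 cultures 3 and 4, and 3 with a replicate block. Without both Compound-1 cultures 3 and 4 the median of the list was 0.06, 9 of 11 genes were above 0 and 2 were at an unadjusted p under 0.05. In bulk libraries, a change in the number of cells of a type and a change in RNA per cell cannot be told apart.

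Tuft cell genes, which mark the chemosensory cells of the epithelium, lay mostly lower. Of 15 tested, 13 had negative log2 fold changes (median -0.72), and none was called. At an unadjusted p under 0.05 were 3 in the lower direction, against 4.1% of all genes, and 1 in the higher. Trpm5, their cation channel, which overlaps Tssc4, was at 7.01, 8.3, 7.44 and 7.06 CPM with vehicle and at 4.96, 5.39, 4.62 and 3.57 CPM with Compound-1 (-0.72 ± 0.21, DESeq2 adjusted p = 0.0607). Dclk1, a kinase used to stain these cells, was at 4.31 to 9.32 CPM with vehicle and at 3.75, 4.04, 1.99 and 1.86 CPM with Compound-1 (-1.14 ± 0.34, DESeq2 adjusted p = 0.0935). Rgs13 likewise did not overlap between groups (0.343 to 0.815 against 0.885 to 1.62 CPM; -1.29 ± 0.40). Pou2f3, the master transcription factor of the lineage, overlapped (1.06 to 2.35 against 1.77 to 3.39 CPM; -0.46 ± 0.36). The count of 3 was 5 without vehicle culture 1 and 1 without Compound-1 cultures 3 and 4. The 3 genes without overlap were each lower in every treated culture, against 1.27% of all genes. Control enteroids had higher summed levels of the list, at 40.1 to 94.9 CPM, than the vehicle cultures (31.4 to 46.2 CPM) or the Compound-1 cultures (25.4 to 41.5 CPM), with ranges that overlap.

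Other lineage lists showed no gene called by DESeq2. Median log2 fold changes were -0.09 for 13 Paneth cell genes, -0.20 for 20 enteroendocrine genes, -0.05 for 16 stem cell genes, 0.11 for 17 enterocyte transcription factors and -0.01 for 30 proliferation genes, whose extremes were -0.15 and 0.16. Among these lists, p was under 0.05 for 1 stem cell gene in the lower direction and for 1 enterocyte transcription factor in the higher direction. Single Compound-1 cultures went in different directions. Culture 2 exceeded all 4 vehicle cultures for 11 enteroendocrine genes, and cultures 1 and 4 lay below them for 10 and 11. Without culture 2 the enteroendocrine median was -0.595, with 8 genes lower at an unadjusted p under 0.05. For proliferation genes, culture 3 lay below all vehicle cultures for 20 and culture 2 above them for 12. Over all genes these shares were 19.3% to 28% above and 16.2% to 25.1% below. Cholesterol synthesis genes (22, median -0.12) had none at an unadjusted p under 0.05, and 1 of 18 genes of the unfolded protein and integrated stress response did, in the higher direction.

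Genes of the circadian output pathway were among the clearest lower genes. The clock factors CLOCK and BMAL1 (gene Arntl) drive expression of the PAR-bZIP factors DBP, HLF and TEF and of the period genes, which in turn feed back on the clock. Dbp lies on chromosome 7 (45705088 to 45710203, plus strand, GRCm38) and was at 20.5, 24.8, 20.3 and 10.3 CPM with vehicle and at 7.98, 6.67, 3 and 3.17 CPM with Compound-1. Its log2 fold change was -1.90 ± 0.37 (DESeq2 adjusted p = 0.00078), and it was called in all 8 fits with 1 culture left out. Sphk2, which overlaps Dbp on the opposite strand, had 0.19 ± 0.17. Hlf was at 1.20, 0.48, 2.30 and 0.24 CPM with vehicle and at 0.201, 0.094, 0 and 0.0856 CPM with Compound-1, which are 6, 3, 0 and 3 counts (adjusted p = 0.0237, 4 of 8 fits). Tef was at 84.1, 112, 114 and 73.1 CPM with vehicle and at 72.4, 59.6, 45.5 and 39.1 CPM with Compound-1 (-0.85 ± 0.22, adjusted p = 0.0581). All 3 PAR-bZIP genes were lower in every treated culture than in every vehicle culture.

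The period genes overlapped between groups. Per3 was at 32.6, 52.3, 61.2 and 22.2 CPM with vehicle and at 33.4, 15.2, 16.4 and 18.8 CPM with Compound-1 (-1.04 ± 0.33, DESeq2 adjusted p = 0.141), and Per2 was at 33.3 to 54.5 CPM against 13.1 to 38.1 CPM (-0.88 ± 0.31). Arntl lay in the opposite direction, at 8 to 14.1 CPM with vehicle and at 13.7, 15.6, 20.1 and 23.4 CPM with Compound-1 (0.80 ± 0.23, DESeq2 adjusted p = 0.0942, not called). Nr1d1, a repressor of Arntl, had -0.37 ± 0.18. Of 19 clock genes, a list drawn up after these values had been seen, 7 were at an unadjusted p under 0.05 in the lower direction, against 4.1% of all genes, and 1 in the higher. Without Compound-1 cultures 3 and 4 there were 4 and 0. The time of day of harvest was not given in the sources used here. The promoters of Tef and Per3, which DESeq2 did not call, are printed because they hold clock motifs. They were picked for that reason, and matches were not counted over the 19 clock genes. Tef has an E-box match 127 bases before the start, and Per3 has D-box matches 205 and 158 bases before it. The promoter of Dbp was searched too and held 0 E-box, D-box or AP-1 matches.
Tef (chr15:81802423-81802722, plus strand): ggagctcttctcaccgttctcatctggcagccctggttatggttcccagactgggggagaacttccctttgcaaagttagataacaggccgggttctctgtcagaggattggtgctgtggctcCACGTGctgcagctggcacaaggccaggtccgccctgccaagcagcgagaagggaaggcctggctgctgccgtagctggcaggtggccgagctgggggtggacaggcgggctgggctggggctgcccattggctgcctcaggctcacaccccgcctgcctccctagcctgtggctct
Per3 (chr4:151044616-151044915, minus strand): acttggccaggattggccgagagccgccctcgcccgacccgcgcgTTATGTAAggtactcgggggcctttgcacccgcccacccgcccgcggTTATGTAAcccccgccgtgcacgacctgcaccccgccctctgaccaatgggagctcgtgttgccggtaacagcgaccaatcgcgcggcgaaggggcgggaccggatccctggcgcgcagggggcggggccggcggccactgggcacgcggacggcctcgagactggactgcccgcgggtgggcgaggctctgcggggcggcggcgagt

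Genes of MHC class II antigen presentation, which enterocytes can express, were lower. Ciita, the coactivator that switches the class II genes on, lies on chromosome 16 (10480059 to 10528418, plus strand, GRCm38). It was at 3.12, 4.56, 5.42 and 1.5 CPM with vehicle and at 0.972, 0.658, 0.246 and 0.485 CPM with Compound-1. The groups did not overlap, with a log2 fold change of -2.67 ± 0.49 (DESeq2 adjusted p = 0.000185), and the call was made in all 8 fits with 1 culture left out. Dexi, which overlaps Ciita on the opposite strand, had -0.04 ± 0.20. H2-DMa, part of the peptide-loading chaperone, was at 6.35, 8.48, 9.49 and 4.93 CPM with vehicle and at 3.99, 3.45, 2.19 and 2 CPM with Compound-1 (-1.37 ± 0.31, adjusted p = 0.0116, 4 of 8 fits).

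Cd74, the invariant chain, was at 57.4, 96.4, 147 and 44.7 CPM with vehicle and at 44, 28.1, 3.61 and 5.25 CPM with Compound-1 (-2.12 ± 0.70, DESeq2 adjusted p = 0.327, not called). Compound-1 culture 1 and vehicle culture 4 were close together for Cd74. The class II chains H2-Ab1, H2-Aa and H2-Eb1 and the chaperone chain H2-DMb1 were also lowest in Compound-1 cultures 3 and 4 and highest in vehicle cultures 2 and 3, with 2.31, 0.147, 1.84 and 0.344 CPM in Compound-1 culture 3 and 60.4, 20.4, 41.8 and 9.52 CPM in vehicle culture 3. Their log2 fold changes were -1.61 ± 0.65, -2.04 ± 0.93, -1.92 ± 0.69 and -1.74 ± 0.73, and none was called. All 7 tested genes of the list, which was drawn up after these values had been seen, were below 0, and without cultures 3 and 4 their median was -1.07 in place of -1.92. Cd74 also stands in the list of 10 immune cell genes, whose summed level was 51.5 to 158 CPM with vehicle and 12.1 to 51.4 CPM with Compound-1. Of its 4 tested genes all were below 0, and Cd74 was the 1 gene at an unadjusted p under 0.05. The defining leukocyte genes were at or near 0 in both groups, with Ptprc, the pan-leukocyte CD45 gene, at 0 to 0.0601 CPM with vehicle and at 0 to 0.123 CPM with Compound-1.

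**Figure D5:**
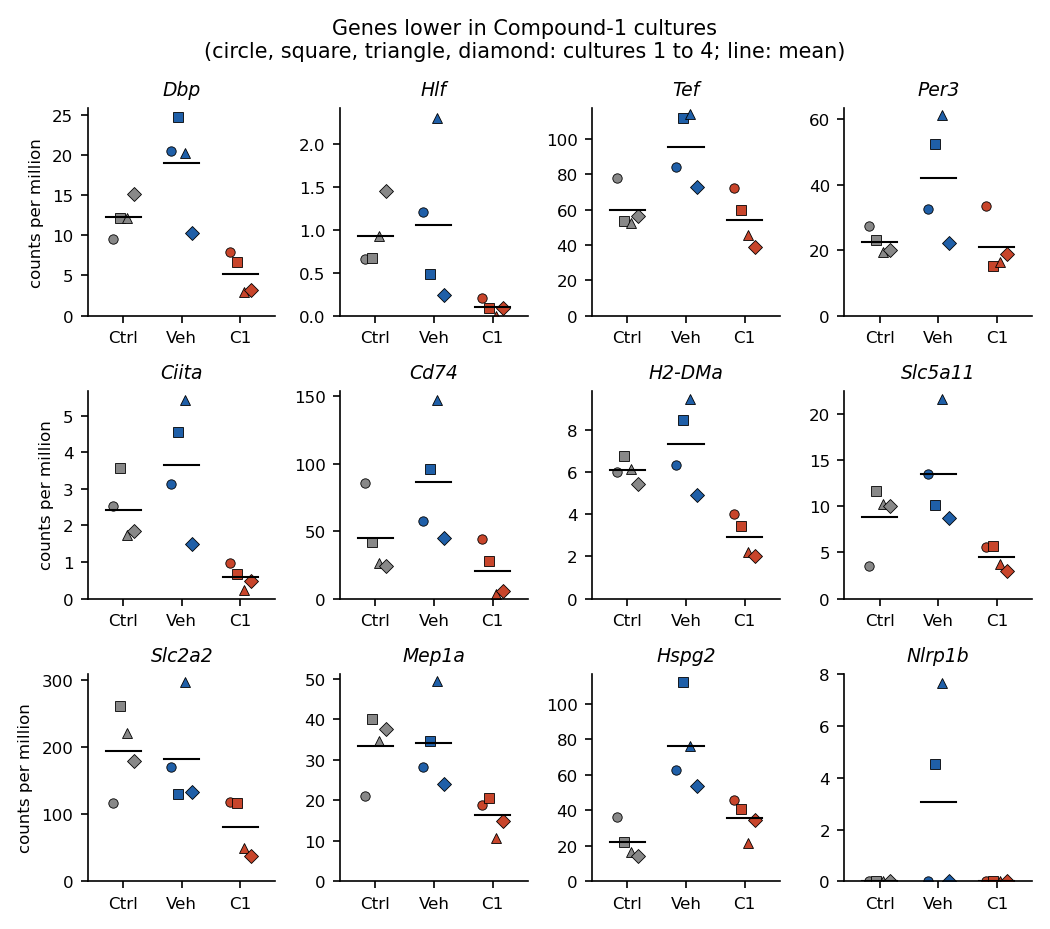
CPM (vertical axes, starting at 0) of 12 genes that were lower on average with Compound-1, in control enteroids (Ctrl), vehicle-treated knockout (Veh) and Compound-1-treated knockout (C1); each symbol is 1 culture and each line the mean of 4. For Dbp the vehicle cultures are at 10.3 to 24.8 CPM and the Compound-1 cultures at 3 to 7.98 CPM, and Nlrp1b is at 4.53 and 7.65 CPM in vehicle cultures 2 and 3 and at 0.03 CPM or less in all others shown.

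Sugar transport and brush border genes were lower in part. Slc5a11, a sodium-coupled inositol transporter on chromosome 7 (123214780 to 123273253, plus strand, GRCm38), was at 13.5, 10.1, 21.6 and 8.77 CPM with vehicle and at 5.6, 5.73, 3.71 and 3.03 CPM with Compound-1. The groups did not overlap (-1.61 ± 0.32, DESeq2 adjusted p = 0.00218), and the call was made in all 8 fits with 1 culture left out. Slc37a2, a glucose 6-phosphate exchanger that overlaps the pseudogene Gm10177, and Slc2a7, a facilitative hexose transporter, did not overlap either, with 1.68 to 3.12 against 3.63 to 10.3 CPM and 1.63 to 3.72 against 4.2 to 9.42 CPM. Their log2 fold changes were -1.55 ± 0.34 and -1.54 ± 0.35, and both were called (adjusted p = 0.0108 and 0.0116).

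The main absorptive genes were lowest in Compound-1 cultures 3 and 4. Slc5a1, the sodium-glucose cotransporter SGLT1, was at 1210, 864, 1790 and 688 CPM with vehicle and at 926, 522, 382 and 369 CPM with Compound-1 (-1.08 ± 0.35, DESeq2 adjusted p = 0.123). Slc2a2, which encodes GLUT2, the basolateral glucose exit, was at 171, 131, 297 and 134 CPM with vehicle and at 119, 117, 50.2 and 37.5 CPM with Compound-1 (-1.21 ± 0.39, DESeq2 adjusted p = 0.112). Sis, the sucrase-isomaltase of the brush border, was at 2370, 1710, 4250 and 1730 CPM with vehicle and at 1930, 1280, 877 and 738 CPM with Compound-1 (-1.09 ± 0.35, DESeq2 adjusted p = 0.127). Of these Slc2a2 did not overlap between groups, and DESeq2 called none. Mep1a, a brush border metalloproteinase, was called (24 to 49.3 CPM against 10.7 to 20.5 CPM; -1.10 ± 0.26, adjusted p = 0.0263). Over 24 genes of sodium and nutrient transport, 8 were at an unadjusted p under 0.05 in the lower direction, against 4.1% of all genes, and 1, the chloride channel Ano1, in the higher (0.99 ± 0.26). Over 25 brush border genes, 8 were at an unadjusted p under 0.05 in the lower direction and 0 in the higher. The median log2 fold change was -0.12 for the transport list, with 8 above 0 and 16 below. For the brush border list it was -0.15, with 10 above 0 and 15 below. Without vehicle culture 3 the brush border median was 0.05, with 14 above 0 and 11 below. The 8 of each list became 5 and 3 without vehicle culture 1, 4 and 2 without vehicle culture 3, 5 and 4 without Compound-1 culture 3, 4 and 4 without Compound-1 culture 4, and 0 and 1 without both; the 8 brush border genes also became 4 without Compound-1 culture 2 and 5 with donor sex as a covariate.

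Genes of fat oxidation held several lower genes. The peroxisomal enzymes Acaa1b and Eci3 and the fatty acid hydroxylase Cyp4a10, which the nuclear receptor PPARA is known to induce, were called by DESeq2 (-1.18 ± 0.26, -1.61 ± 0.42 and -3.06 ± 0.68). They were at 24.1 to 35.5 against 30.4 to 77.8 CPM, at 2.17 to 4.01 against 4.8 to 19.9 CPM and at 0.0491 to 0.143 against 0.33 to 1.7 CPM. Fabp2, the intestinal fatty acid-binding protein, did not overlap and was not called (-0.80 ± 0.22, adjusted p = 0.0714). The list of fat oxidation and ketogenesis held 26 genes with a median of -0.16. Of these 6 were at an unadjusted p under 0.05 in the lower direction, against 4.1% of all genes, and 0 in the higher. The 6 became 3 without vehicle culture 3 or Compound-1 culture 4 and 2 without both Compound-1 cultures 3 and 4. Of 19 tested PPARA targets, a list also drawn up after these values had been seen, 6 were at an unadjusted p under 0.05 in the lower direction and 1 in the higher. Each of Acaa1b, Eci3 and Cyp4a10 has close relatives in the mouse genome, and how reads shared between copies were counted was not given in the sources used here.

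Ldhb, the lactate dehydrogenase subunit of oxidative tissues, was at 1.08, 4.71, 4.64 and 2.13 CPM with vehicle and at 0.905, 1.19, 1.18 and 0.599 CPM with Compound-1 (-1.73 ± 0.47, DESeq2 adjusted p = 0.0486), and vehicle culture 1 lay within the Compound-1 range. It was the only called gene of 23 in the glycolysis and lactate list. Hspg2, which encodes the basement membrane proteoglycan perlecan, was at 62.7, 112, 75.9 and 53.6 CPM with vehicle and at 45.9, 40.8, 21.5 and 34.5 CPM with Compound-1. It did not overlap (-1.13 ± 0.27, adjusted p = 0.0298, 4 of 8 fits), and control enteroids were lower still, at 14.4 to 36.2 CPM. The basement membrane collagen genes Col4a1 and Col4a2, which lie head to head and overlap, did not follow Hspg2: they reached 102 and 123 CPM in Compound-1 culture 3 and were at 6.61 and 6.7 CPM in culture 2 (1.68 ± 0.75 and 2.15 ± 0.75, not called). Further genes that were called and lower without overlap were Nfe2, a bZIP factor (-1.65 ± 0.39), Klhl3, an adaptor of a ubiquitin ligase (-2.33 ± 0.58), Gpr155, a lysosomal cholesterol sensor (-0.85 ± 0.19), Podn, a small leucine-rich proteoglycan that overlaps the far more abundant Scp2 (-1.27 ± 0.30), Armh4 (-3.08 ± 0.80) and Abat, the GABA transaminase (-0.69 ± 0.17).

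Vehicle cultures 2 and 3, both from female mice, were the highest vehicle cultures for Nlrp1b, Trim30a and Trim12a. Nlrp1b, an inflammasome sensor, had 151 and 216 counts in vehicle cultures 2 and 3 (4.53 and 7.65 CPM), 0 and 1 counts in vehicle cultures 1 and 4 and 0 in all 4 Compound-1 cultures, where the limit was 0.0737 to 0.101 CPM. It was also at 0 in all 4 control libraries, and at 2.504 to 5.21 CPM in all 4 G519R libraries. Trim30a, an interferon-induced regulator, was at 0.899, 3, 2.58 and 0.24 CPM with vehicle and at 0.0571 to 0.603 CPM with Compound-1 (-2.72 ± 0.82, adjusted p = 0.0657), so that vehicle cultures 2 and 3 again stood highest. Trim12a had 10.3 and 9.59 CPM in the same vehicle cultures and 3.81 and 6.22 CPM in cultures 1 and 4 (-0.95 ± 0.40). The female Compound-1 culture, culture 4, was at 0 CPM for Nlrp1b and 0.0571 CPM for Trim30a. Nlrp1b, Trim30a and Trim12a belong to families of near-identical copies, so their counts are uncertain, and donor and treatment cannot be told apart for them. Of 42 interferon-response genes, 11 were at an unadjusted p under 0.05 in the lower direction, against 4.1% of all genes, and 0 in the higher (median -0.42), and Sp100 was called (0.114 to 0.838 against 0.841 to 2.88 CPM; adjusted p = 0.0440). The count in the lower direction was 4 with donor sex as a covariate, 7 and 5 without vehicle cultures 1 and 2, 20 without vehicle culture 4, 6 without Compound-1 culture 4 and 3 without Compound-1 cultures 3 and 4. The summed level of the list was 476 to 1059 CPM with vehicle and 498 to 863 CPM with Compound-1.

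Of 20 genes that the study's text names for MYO5B loss, DESeq2 called 1, Plaur. At an unadjusted p under 0.05 were 6 in the higher direction, against 3.42% of all genes, and 3 in the lower, against 4.1%. Without Compound-1 culture 3 or without vehicle culture 4 the higher count was 1 and 2, and with a replicate block it was 3. Cldn4, a tight junction claudin, was at 277 to 370 CPM with vehicle and at 378, 358, 964 and 621 CPM with Compound-1 (0.77 ± 0.28). Notch3 was at 6.08, 36.3, 28.6 and 11.3 CPM with vehicle and at 6.7, 7.83, 16.3 and 6.51 CPM with Compound-1 (-1.18 ± 0.51), and Notch1 had -0.35 ± 0.16. Of the chemokines, Cxcl16 and Ccl20 did not overlap between groups (1.00 ± 0.26 and 1.04 ± 0.29, neither called), and Ccl25, which recruits lymphocytes to the small intestine and overlaps Elavl1 on the opposite strand, had -0.42 ± 0.17. Among the genes the text names for Compound-1, DESeq2 called Nox1 higher and Ldhb and Hspg2 lower. It did not call Nlrp1b (adjusted p = 0.224) or Trim30a (adjusted p = 0.0657), where the text names Nlrp1b and Trim30. All of these were chosen by the study on these samples, so their directions are not independent evidence. Among 19 partners of MYO5B in membrane trafficking, 4 were at an unadjusted p under 0.05 in the higher direction (2 without vehicle culture 2 or 4, 1 without Compound-1 culture 3 or 4, 0 without both) and none was called, with Rab11fip5, a RAB11 effector, at 0.177 to 1.14 CPM with vehicle and at 1.24, 1.10, 9.06 and 2.54 CPM with Compound-1 (2.16 ± 0.71).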

How the data were processed

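Poly(A) RNA of 16 enteroid cultures was sequenced; the 8 knockout cultures were compared here, 4 per group by their labels. The authors aligned reads with STAR 2.5 to GRCm38 (mm10) and counted them per gene with HTSeq 0.6.1, per the labels and methods; the strand setting and the treatment of reads that map to several places were not given in the sources used here. The deposited tables hold raw counts for 54532 genes and FPKM values made by the authors from them. FPKM served for levels between genes and for 2 limma alternatives.

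A minimum of 10 counts in 2 or more libraries was set for testing, and the counts were fitted with edgeR 4.0.16 (TMM scaling, quasi-likelihood test, Benjamini-Hochberg adjustment, threshold 0.05) in R 4.3.3, on these 2 groups alone. DESeq2 1.42.0 and limma 3.58.1 were alternatives. DESeq2's adjusted p was missing for 1065 genes. CPM values were TMM-scaled over all 16 libraries. The fits were tested on simulated data. Whether cultures were independent beyond the mouse is not stated, and p-values measure the spread between these cultures.

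Named genes were: any edgeR calls; the 12 per direction with the smallest p among DESeq2 calls above 1 on the log2 scale and a mean of 1 CPM or more, and among genes of that level whose groups did not overlap; genes named in the study's text; and up to 3 members of each list with the smallest p, with defining markers. Chosen after their values were seen were 4 lists (clock, MHC class II, PPARA targets, oxidant production), Myo5b, Lpar1, Lpar3, Cyba, S100a6, Clu, Anxa1, Krt7, Ereg, Muc2, the genes of the AP-1 count and Cstf2, Sphk2 and Dexi. All lists and members were chosen with earlier results of these data known. Podn, Slc37a2, Trpm5, Noxo1, Duoxa2, Noxa1, Nr1d1, Lpar6, Per3, Cxcl16, Tagln, Col4a1, Col4a2 and Ccl25, besides genes with minor overlaps, also overlap other genes, so their counts are uncertain. Motifs were searched in RefSeq promoters. Certain results are not reported here.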

Additional observations from a re-analysis of the deposited data

Results flagged for a closer look

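In 7 of 206 groups tested (103 genes), 1 of the 4 cultures lay farther from the other 3 than Dixon's criterion allows. Chance gives this in about 1 of 20 groups, so the number is no more than chance would give. Among Compound-1 cultures, culture 2 was low for Lpar5 (20.2 CPM, others 28.5 to 30.2) and for Noxo1 (1.82 CPM, others 3.22 to 3.29), culture 1 was high for Acaa1b (35.5 CPM, others 24.1 to 24.7), and culture 3 was high for Notch3 (16.3 CPM, others 6.51 to 7.83). Among vehicle cultures, culture 4 was low for Duox2 (19.1 CPM, others 48.4 to 52.5), and culture 1 was high for Zg16 (103 CPM, others 38 to 45.7) and Tagln (0.36 CPM, others 0.177 to 0.18).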

How the results depend on the processing

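Neither edgeR nor limma called a gene under any alternative except edgeR without a filter on low counts, which called 12 genes (all 12 also called by DESeq2). With DESeq2 91 genes were called, 84 with a log2 fold change over 1 and 100 on all genes with any count. Of 633 listed genes that were tested, edgeR called 0, edgeR without a filter 2, and these 3 DESeq2 settings 12 each. The DESeq2 count lay between 5 and 405 when 1 culture was left out, was 0 without Compound-1 cultures 3 and 4 and 34 with donor sex as a covariate; the last 2 were added after seeing the data, and the cause of the differences was not tested.

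The replicate numbers did not pair the cultures: deviations from the group means of same-numbered cultures correlated at 0.11, -0.102, 0.071 and -0.095. Under a replicate block edgeR called 0 genes (1174 at an unadjusted p under 0.05), and DESeq2, added after seeing the data, called 146.

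Of 103 genes whose fold change was followed through the alternatives, 98 kept their direction under every alternative. Lpar1 turned to 0.0245 with all 4 groups, 0.00802 with the replicate block, 0.0836 with donor sex, and 0.0194 and 0.0242 with limma at pseudocounts of 1 and 0.1. Without 1 culture Lpar1 ranged from -0.0817 to 0.141, Lpar2 from -0.264 to 0.0904, Lpar5 from -0.00160 to 0.204 and Dexi from -0.135 to 0.0765. Without Compound-1 cultures 3 and 4, Lpar5 was at -0.0175 and Zg16 at -0.125. Changes of scaling moved the median of all genes by at most 0.0399. With 4 cultures per group, genes of a few counts, such as Hlf, are limited by depth.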
